A study of Mus musculus with 2 samples.

Results

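Runx1 peaks that scored just above the lowest values of the list, and that stood alone on the chromosome, are described here. They came from 1 list of regions enriched in chromatin precipitated with anti-Runx1 over chromatin precipitated with rabbit IgG. Both libraries were made from BMiFLT3(15-3), a line of pro-B cells from a mouse BCP-ALL (B-cell-precursor acute lymphoblastic leukaemia). These cells carried a transduced Runx1-ERt2, a fusion of Runx1 to an oestrogen receptor domain. The fusion was therefore shared by the anti-Runx1 library and the IgG library. The antibody was raised in rabbit against a C-terminal peptide of Runx1. Per the labels' protocols, cultures were given tamoxifen at 0.2 µM, which moves the fusion into the nucleus, or ethanol alone, 24 h ahead of the extraction. The labels do not assign either treatment to a library. All values come from 1 cell line with 1 library per arm, so none has an error between cultures.

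Runx1 is a transcription factor that contacts DNA through its Runt domain and pairs with CBFβ, which strengthens that contact. It is needed for the emergence of blood stem cells and for early B-cell development, where it acts together with factors such as Ebf1 and Pax5. In chromatin immunoprecipitation, a peak caller reports a region only when its reads exceed the control by a set margin. Regions close to that margin would be the first to leave the list with a stricter setting.

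The regions were chosen by 2 measured values, the score given by the authors' peak caller and the distance to the next peak. A region was kept when it lay on chromosomes 1 to 19 or X, scored under 60, and had no other peak midpoint within 20 kb. Of the 6792 peaks, 557 (8.20%) met this rule. They were 15.4% of the 3618 isolated peaks (Wilson 95% interval 14.3 to 16.6%), and the other 3061 isolated peaks scored 60 or more. A further 358 peaks scored under 60 but had a neighbour within 20 kb. The 3 peaks on unplaced contigs were left out, and none of them scored under 60. Each interval given below covers the error of counting alone and takes peaks as independent of each other. Scores, widths and positions all come from the same peak call as the rule, so every comparison is a description of this list and carries no test.

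Scores of the 557 regions lay between 50.04 and 59.98. Their median was 54.7, and the quartiles were 52.4 and 57.1. The lowest score in the whole list was 50.03. The weakest of the 557 was chr3:54527843-54528532, which scored 50.04 and had its nearest neighbour 754 kb away. Next were chr12:12884215-12884919 with a score of 50.05 and chr11:61228753-61229328 with a score of 50.06. Just inside the limit of 60 lay chrX:163462660-163463396 with a score of 59.98, chr5:8155847-8156307 with 59.97 and chr1:190909039-190909812 with 59.9. Just outside it lay chr1:137711207-137711782 and chr6:54725588-54726163, both scoring 60.01, and chr14:26540895-26541581, scoring 60.06. Positions are in mm9 and count from 1. Gene annotation and sequence of mm9 were not used here, so the regions were not assigned to genes and no binding motif was searched.

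Isolated peaks scoring under 60 were narrow. Their median width was 679 bp (exact binomial 95% interval 666 to 694), with quartiles of 592 and 775 bp. The other isolated peaks had a median width of 790 bp (783 to 797), with quartiles of 688 and 891 bp. The medians differed by -111 bp, under 60 minus the others. The lower tail held 40 of the 557 regions (7.18%) with a width under 500 bp, against 96 of the other 3061 (3.14%). At the upper end, 16 of the 557 (2.87%) measured 1000 bp or more, against 415 of the other 3061 (13.6%). The 557 regions together covered 384 kb.

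**Figure D1:**
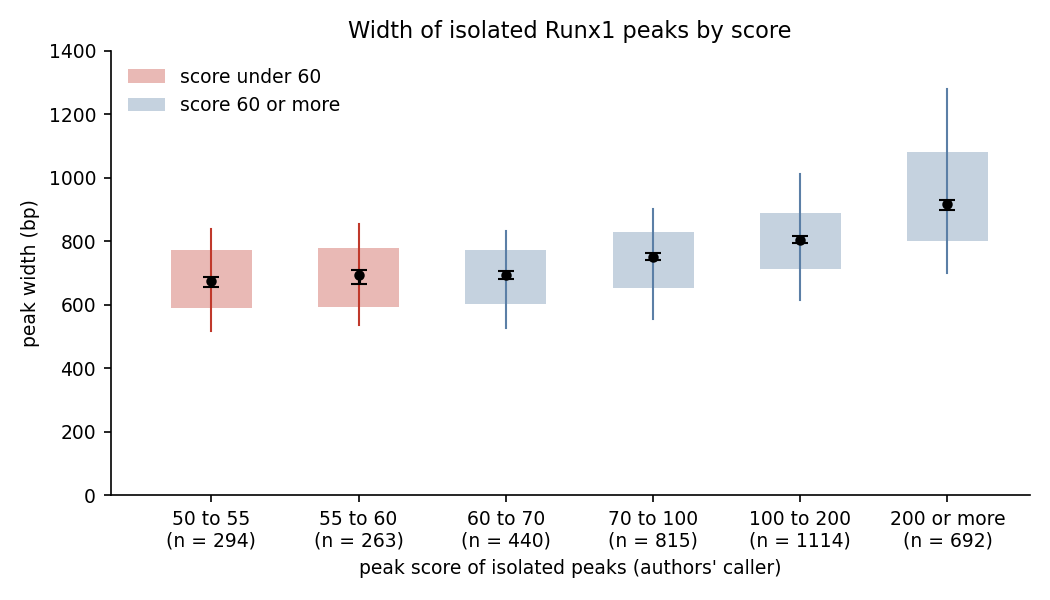
Width of isolated Runx1 peaks in bp (vertical axis) by score bin (horizontal axis), with bins under 60 in red and those from 60 up in blue. Boxes span the quartiles, lines the 10th to 90th percentiles, and points the medians with exact binomial 95% intervals. Medians are 675.5 and 693 bp in the bins under 60, 694 bp from 60 to 70, and 918 bp at 200 or more.

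The limit of 60 did not mark a step in width. The median was 675.5 bp for isolated peaks scoring 50 to 55 and 693 bp for those scoring 55 to 60. For scores of 60 to 70 it was 694 bp (681 to 707), equal to the upper bound of the interval of the 557 regions. The medians were then 749 bp for 70 to 100, 805.5 bp for 100 to 200 and 918 bp for 200 or more. In the narrow band from 58 to 60 the median was 701 bp over 89 peaks, and in the band from 60 to 62 it was 697 bp over 101 peaks. Score and width are both set by the peak caller from the same reads. Among the 557 regions, Spearman's rho between score and width was 0.09, against 0.47 among the other 3061, whose scores span a far wider range.

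Width varied widely within the narrow range of scores. The narrowest region was chr10:93378737-93379045, at 309 bp and a score of 57.45. It was followed by chr2:102553589-102553911 at 323 bp, chr13:55499499-55499822 at 324 bp, chr9:22073424-22073760 at 337 bp and chr8:123711593-123711961 at 369 bp. Of these 5 narrowest regions, the one on chromosome 9 scored 50.95 and the others between 56.9 and 57.58, in the upper part of the range. The widest was chr3:35630104-35631722, at 1619 bp and a score of 53.55. After it came chr15:75867452-75868988 at 1537 bp, chr10:62487650-62489078 at 1429 bp, chr11:118841653-118842965 at 1313 bp and chr2:35443149-35444448 at 1300 bp. These 5 widest regions scored between 50.56 and 53.89, in the lower part of the range of the 557. These extremes do not reflect the whole group, in which Spearman's rho between score and width was 0.09. Median width was 675.5 bp for scores of 50 to 55 and 693 bp for 55 to 60.

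Each of the 19 autosomes and X carried weak isolated peaks. Chromosome 2 held the most, 45 regions, followed by chromosome 11 with 42 and chromosomes 1, 4 and 5 with 40 each. Density was taken over the stretch between the outermost peaks of a chromosome. Chromosome 11 had the highest density, 0.355 regions per Mb (exact Poisson 95% interval 0.256 to 0.480). Chromosomes 13 and 3 had the lowest autosomal density, 0.155 per Mb for each, with intervals of 0.0917 to 0.245 and 0.0981 to 0.232. The interval of chromosome 11 lay above that of chromosome 3 and above that of chromosome 13. These chromosomes were picked as the extremes of 19 autosomes, which favours such a gap, so no difference is concluded from it. The other isolated peaks were also densest on chromosome 11, at 1.943 per Mb, with 1.003 on chromosome 3 and 1.006 on chromosome 13. Their lowest autosomal density was on chromosome 18, at 0.930 per Mb. Of the isolated peaks on chromosome 11, 15.4% scored under 60, close to the overall share. The number of weak isolated peaks per autosome followed that of the other isolated peaks, with Pearson's r = 0.87 and Spearman's rho = 0.91 over 19 autosomes. Both counts share the length of the chromosome and the 2 libraries, and these values are given as a description.

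The share of isolated peaks that scored under 60 had a wide interval on each chromosome. It was highest on X, at 24.4% (Wilson 95% interval 13.8 to 39.3%), on 10 regions. It was lowest on chromosome 19, at 12.0% (Wilson 95% interval 7.41 to 18.9%), on chromosome 10, at 12.1%, and on chromosome 9, at 12.3%. Among autosomes it was highest on chromosome 7, at 18.7% (13.9 to 24.7%), and on chromosome 4, at 18.6%. The overall share of 15.4% lay within the interval of 20 of 20 chromosomes, though intervals this wide leave room for differences between them. Median width was lower in the weak isolated peaks than in the other isolated peaks on 20 of 20 chromosomes.

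**Figure D2:**
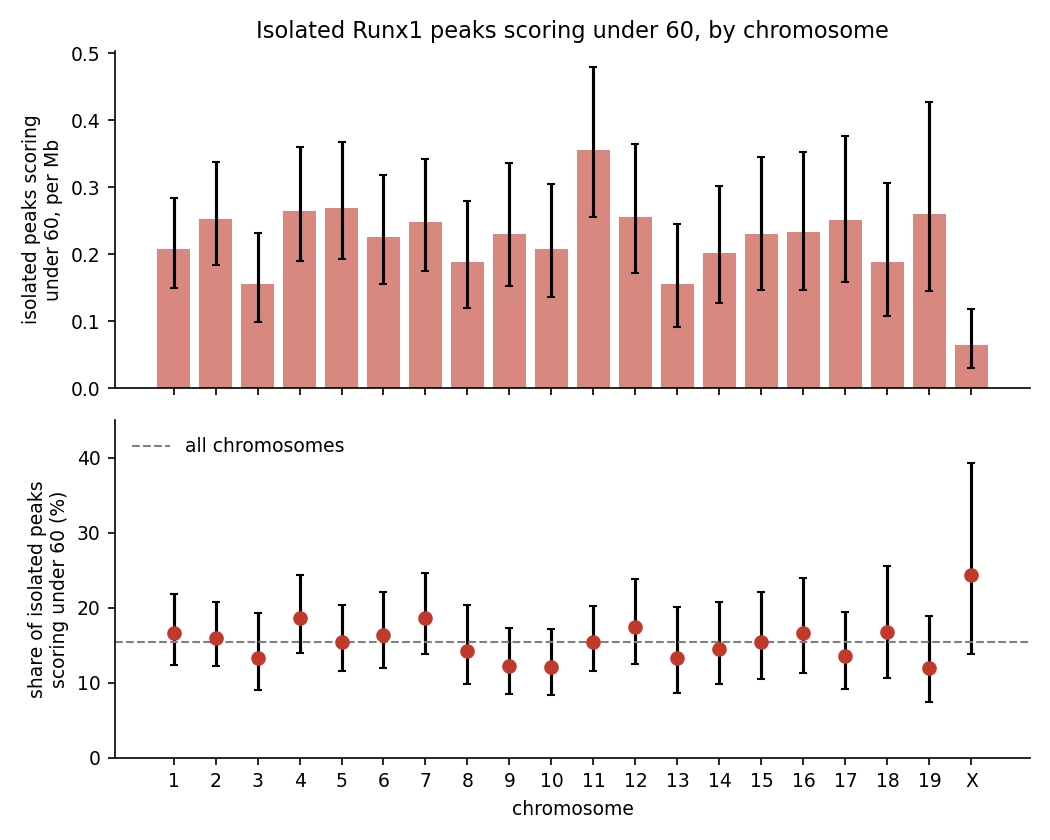
Upper panel: isolated Runx1 peaks scoring under 60 per Mb of each chromosome, as bars with exact Poisson 95% intervals. Lower panel: their share of all isolated peaks of the chromosome in %, as points with Wilson 95% intervals, and the overall 15.4% as a dashed line. X has the lowest density and the highest share, on 10 regions.

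The X chromosome held 10 of the 557 regions (1.795%, Wilson 95% interval 0.978 to 3.27%) and 31 of the other 3061 (1.01%, 0.714 to 1.43%). These intervals overlapped. On X, the 10 regions gave 0.0638 per Mb (0.0306 to 0.117), against 0.230 per Mb over the autosomes. For weak isolated peaks the autosomes were 3.60 times as dense as X, and for the other isolated peaks 6.44 times. Of the isolated peaks on X, 24.4% scored under 60, with an interval of 13.8 to 39.3% that includes the overall share. In all, 12 peaks on X scored under 60, and 10 of them were isolated. X held 45 peaks of any score, and besides these 10, 31 peaks scoring 60 or more were isolated. Most peaks on X were thus isolated whatever their score, and the 10 of 12 is not a trait of the weak ones.

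The X regions were narrow, between 418 and 805 bp, with a median of 611.5 bp (471 to 737). The other isolated peaks of X had a median of 668 bp (555 to 723), so the intervals overlapped. The highest-scoring of the 10 was the region at 59.98 named above, and the next was chrX:98832533-98833081, which scored 58.43 and measured 549 bp. That region was also the closest of the 10 to a strong peak, 96.5 kb from one scoring 299.37. The region chrX:19879113-19879755 scored 56.61, and its nearest peak, 30.1 kb away, was another of the 10, with a score of 51.37. At 132 kb from chrX:19879113-19879755 lay chrX:20011619-20012036 with a score of 55.51. The remaining named regions on X were chrX:93325313-93326005, scoring 55.58, chrX:100688757-100689561, scoring 54.34, chrX:162906021-162906647, scoring 53.68, and chrX:45281061-45281531, scoring 53.3.

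In this list, weak isolated peaks lay somewhat farther from strong peaks than the other isolated peaks did. A strong peak was taken as one scoring 200 or more, of which chromosomes 1 to 19 and X held 1602, and no peak was counted as its own neighbour. The median distance between midpoints was 362 kb (exact binomial 95% interval 332 to 417), with quartiles of 134 and 1092 kb. For the other isolated peaks it was 302 kb (280.5 to 325), with quartiles of 104 and 977 kb. The medians differed by 59.6 kb. Within 100 kb of a strong peak lay 109 of the 557 regions (19.6%, Wilson 95% interval 16.5 to 23.1%), against 739 of the other 3061 (24.1%, 22.7 to 25.7%). Within 200 kb lay 34.3% (30.5 to 38.3%) of the 557 and 40.0% (38.3 to 41.8%) of the other 3061. Within 500 kb the shares were 59.2% (55.1 to 63.2%) of the 557 and 62.4% (60.7 to 64.1%) of the other 3061. At each of these 3 distances the intervals of the 557 and of the others overlapped, at 100 and 200 kb only at their ends.

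**Figure D3:**
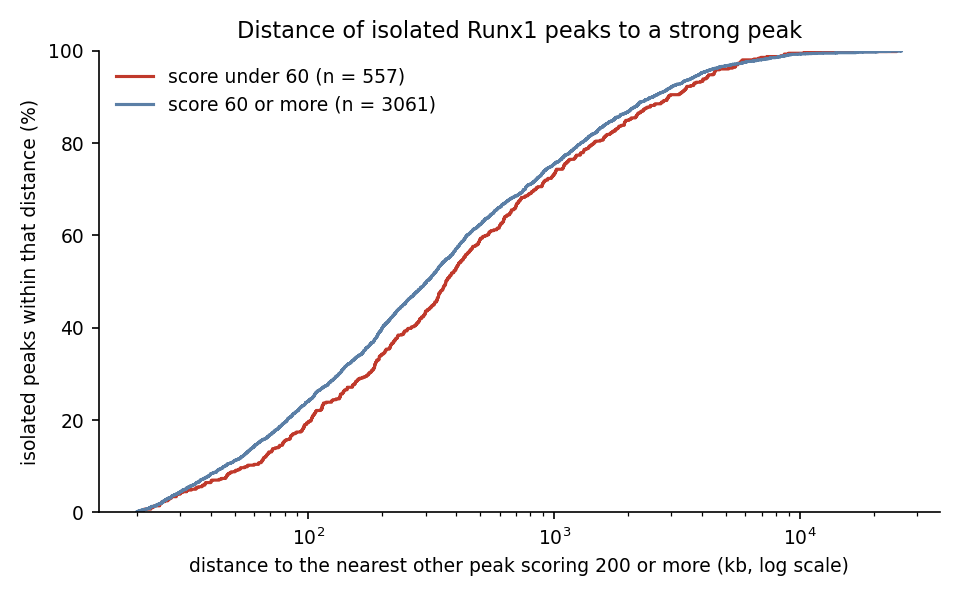
Share of isolated Runx1 peaks in % (vertical axis) within a given distance of the nearest other peak scoring 200 or more (horizontal axis, kb, log scale), for scores under 60 in red and 60 or more in blue. The median is 362 kb for scores under 60 and 302 kb for 60 or more. The red curve also lies to the right at the 10th percentile (56.5 against 45.7 kb) and at the 90th (2915 against 2515 kb). Both curves start at 20 kb by the rule.

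The difference in distance was smaller against peaks of moderate score, and it was not shared by all chromosomes. Isolated peaks scoring 60 to 200 had a median of 326 kb (300.2 to 346) to the nearest strong peak, an interval that overlapped that of the 557 regions. For scores of 60 to 70 the median was 390 kb, above that of the 557. Isolated peaks that themselves scored 200 or more had a median of 231 kb (199.6 to 268) to the next such peak. Taken by chromosome, the weak isolated peaks had the larger median distance on 12 of 20. On X the order was the opposite, with medians of 1058 kb for its 10 regions and 6491 kb for its other 31 isolated peaks. Their intervals, 466 to 7342 kb and 4192 to 16894 kb, overlapped. On autosomes alone the medians were 359 kb for the weak isolated peaks and 297 kb for the other isolated peaks.

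At the near end, 49 of the 557 regions (8.80%) lay within 50 kb of a strong peak, and the 5 nearest are named here. The closest was chr10:44355629-44356410, which scored 53.27 and lay 20.4 kb from chr10:44335255-44336007, which scored 364.35. In the case of chr2:127164634-127165168, a score of 51.92 stood 21.1 kb from a peak scoring 681.45. The other three were chr9:107986012-107986796, 21.2 kb from a score of 249.51, chr12:86809285-86810059, 21.5 kb from a score of 571.8, and chr11:97839014-97839684, 22.8 kb from a score of 202.45. That no other peak midpoint lay within 20 kb of these 5 weak regions follows from the rule and is not a finding about them.

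At the far end, 22 of the 557 regions (3.95%) lay more than 5000 kb from any strong peak, against 100 of the other 3061 (3.27%). The farthest was chrX:45281061-45281531, 24772 kb from a strong peak. It was followed by chr8:59917272-59917830 at 12203 kb, chr16:74062126-74062729 at 10395 kb, chr16:64801314-64802042 at 8997 kb and chr3:21975947-21976734 at 8643 kb. Each of these 5 had a peak scoring under 200 nearer by, at 37.5 to 201 kb. The nearest neighbour of the chromosome 16 region at 64801314 lay 43.4 kb away and scored 193.31.

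Set against all other isolated peaks, the weak isolated regions had fewer peaks of any score around them. By median distance and median number, isolated peaks of the next higher scores were close to them. The nearest peak of any score lay at a median of 96.5 kb (88.6 to 107), against 78.8 kb (74.4 to 82.2) for the other isolated peaks. That distance was 84.3 kb (78.9 to 95.9) for scores of 60 to 70 and 85.7 kb (76.4 to 94.7) for 70 to 100, and both intervals overlapped that of the 557. A neighbour within 50 kb was present for 149 of the 557 (26.8%, Wilson 95% interval 23.2 to 30.6%) and for 1052 of the other 3061 (34.4%, 32.7 to 36.1%). On this measure isolated peaks scoring 60 to 200 also lay apart from the 557, at 32.8% (31.0 to 34.8%). No other peak lay within 500 kb of 57 of the 557 regions (10.2%, Wilson 95% interval 7.98 to 13.0%), against 208 of the other 3061 (6.80%, 5.96 to 7.74%). Among isolated peaks scoring 60 to 200 the share was 7.22% (6.24 to 8.33%), which overlapped that of the 557. The median number of other peaks within 500 kb was 4 for the 557 regions and 5 for the other isolated peaks, and it was also 4 for scores of 60 to 70 and of 70 to 100. The nearest peak scored under 60 in 15.3% of the 557 and in 14.4% of the others, and it scored 200 or more in 22.8% of the 557 and in 21.2% of the others. In both cases the Wilson 95% intervals of the 557 and of the others overlapped. For 69 of the 557 regions (12.4%) the nearest peak was another of the 557, which made up 8.20% of all peaks. How often the nearest peak of the other 3061 was one of the 557 was not counted, so no excess is read from this.

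In this list the isolated share was larger among low-scoring peaks than among high-scoring ones. Of the 915 peaks scoring under 60 on chromosomes 1 to 19 and X, 60.9% had no midpoint within 20 kb (Wilson 95% interval 57.7 to 64.0%). Of the 5874 peaks scoring 60 or more, 52.1% had none (50.8 to 53.4%). Again the change was gradual across scores. The isolated share was 60.5% for scores of 55 to 60, 59.5% for 60 to 70, 58.1% for 70 to 100, 52.3% for 100 to 200 and 43.2% for 200 or more.

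**Figure D4:**
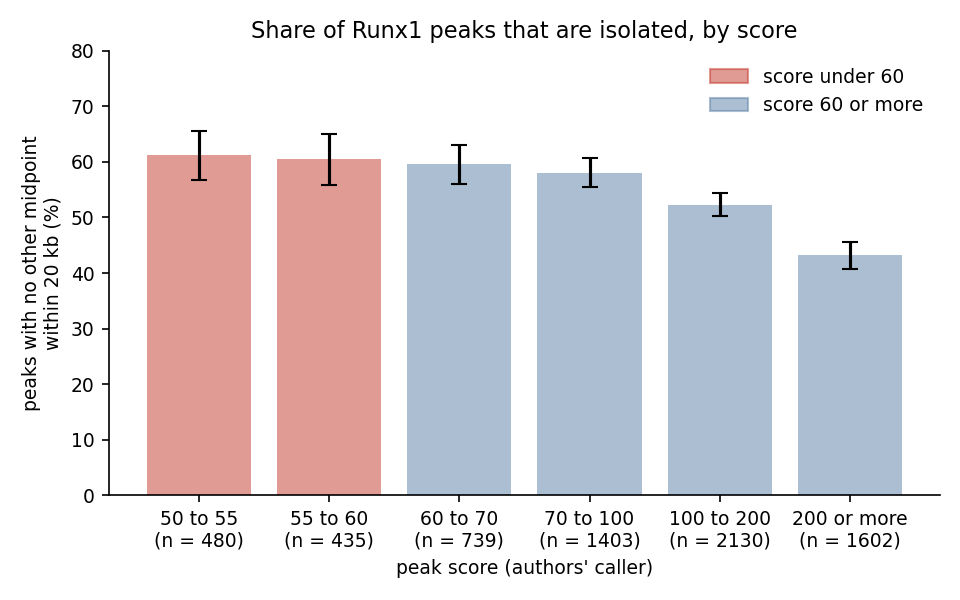
Share of Runx1 peaks in % with no other peak midpoint within 20 kb (vertical axis), by score bin (horizontal axis), as bars with Wilson 95% intervals, red under 60 and blue from 60 up. The share is 60.5% for scores of 55 to 60 and 43.2% at 200 or more.

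The isolated weak peaks were close in width to the weak peaks that had neighbours. The median was 679 bp for the 557 isolated ones and 685.5 bp (670 to 700) for the 358 with a neighbour within 20 kb, whose interval overlapped that of the 557. The 358 had a median score of 54.8, against 54.7 for the 557. The median distance to a strong peak was 362 kb for the 557 and 66.8 kb for the 358. The rule itself keeps the 557 more than 20 kb from any peak. Within 500 kb of a strong peak lay 59.2% of the 557 and 80.4% of the 358. Among the 358, the nearest peak scored 200 or more in 29.3%, an interval of 24.9 to 34.2% that overlapped the 19.5 to 26.5% of the 557.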

How the data were processed

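Chromatin immunoprecipitation with sequencing was done on 2 libraries, 1 with anti-Runx1 and 1 with IgG, and library fragments of 350 to 550 bp were used, per the labels' protocols. The peak list was deposited by the authors as intervals with a score, made from both libraries together per the file header. Named in the submitters' processing notes are the build mm9 and, with no settings, MACS 1.4.01, Bowtie 0.12.8 and CASAVA 1.8.2. The scale of the score is not stated, the list gives no read numbers, and the depth is unknown.

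Isolation and distances were computed from interval midpoints, over the whole list, and width from the start to the end of each interval. The software was scipy 1.17.1, pandas 2.3.3 and numpy 2.4.6 under Python 3.11.15, with matplotlib 3.10.9 for the figures. In a simulated list, 391 of 391 planted isolated weak peaks were found. No simulated peak was placed at the limits of 60 or 20 kb, so cases at those limits were not checked. Shares have Wilson 95% intervals, densities exact Poisson ones, and medians exact binomial ones from order statistics. Peaks of 1 list are not replicates, so no test was run. Regions named are the 3 lowest and 3 highest scores, the 3 lowest isolated scores from 60 up, the 5 widest, narrowest, nearest and farthest, and the 8 highest scores on X. Strong neighbours of the named regions are given with them. The regions and limits were chosen with earlier results of these data known. The gene and promoter tables at hand describe GRCm38.p6 and were not used. The planned motif search was not run.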

Additional observations from a re-analysis of the deposited data

How the results depend on the processing

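Of 74 values recomputed under other settings, 55 stayed within the 95% interval of the reported value, or within 1.5 times for a count, and 19 did not. The direction of each difference held in every setting run for it: lower width in 8 of 8, larger distance to a strong peak in 10 of 10, a larger share on X in 7 of 7 and a larger isolated share in 8 of 8. The intervals of the 2 median distances, apart as reported, overlapped in 4 of the 10: isolation at 50 kb, peaks under 55 left out, and a strong peak at 150 or 300. Those of the 2 shares on X overlapped as reported and in 7 of the 7 settings. For width and for the isolated share they overlapped in 0 of 8. All settings reuse peaks of the same list, so a direction that holds is not independent evidence. In the following, values of the weak isolated peaks stand before those of the other peaks. With isolation at 10 kb, the median distance to a strong peak was 324 and 242 kb and the isolated share 72.1 and 64.4%. With isolation at 50 kb, the distances were 466 and 418 kb, the isolated shares 44.6 and 34.2%, and the median width of the other isolated peaks 782 bp. With a strong peak at 150 the distances were 246 and 196 kb, and at 300 they were 772 and 652 kb. Leaving out peaks under 55 left 271 weak isolated peaks and an isolated share of 53.9% for scores from 60 up. Joining intervals within 500 bp gave isolated shares of 64.0 and 55.4%. A score limit of 70 gave 997 weak isolated peaks and a median width of 809 bp for the others. Fewer peaks in the list, or another limit, changes these numbers by construction. Measuring between edges, leaving out peaks wider than 5 kb, and autosomes alone (chosen after seeing the data) moved no value outside its interval. No replicate could be left out. No paired analysis was possible because each arm had 1 library. Without read numbers, the depth is unknown, and what set the lower end of the list was not tested.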

Other observations

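Width hardly varied with the distance to a strong peak among the 557 weak isolated regions. Their median width was 674 bp (634 to 694) within 100 kb of a peak scoring 200 or more, 683 bp (666 to 714) from 100 to 500 kb, 697 bp (647 to 743) from 500 to 1000 kb and 657 bp (641 to 695) beyond 1000 kb. The other isolated peaks had medians of 801, 790, 786.5 and 780 bp in the same classes. In each class the weak isolated peaks had the lower median. Spearman's rho over the 557 regions was -0.04 between width and distance to a strong peak and -0.01 between score and that distance. These values describe 1 list and carry no test. The nearest peak lay at the lower coordinate for 275 of the 557 regions (49.4%, Wilson 95% interval 45.2 to 53.5%).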
